A study of Homo sapiens with 6 samples.

Results

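CITED2 and 9 genes of the hypoxia-inducible factor (HIF) system were followed in cultures of H1, a widely used line of human embryonic stem cells, on 2 laminin coatings. The 10 genes were CITED2, HIF1A, EPAS1, ARNT, EP300, CREBBP, EGLN1, EGLN3, VEGFA and ADM. They were chosen by their place in the HIF system around CITED2, and were selected on knowledge of the measured difference in CITED2 between the coatings. Each symbol matched 1 of the 60499 Ensembl gene IDs in the tables, and all 10 passed the filter on low counts. Their differences between coatings are therefore a description: the fit across all genes included them, but its calls and intervals for them rest on the values that were known when they were named and are no independent test.

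The cells grew for 4 days in NutriStem medium, changed daily. They sat on laminin-521 alone (LN-521, here the single coating) or on laminin-521 with laminin-221 (LN-521+LN-221, here the mixed coating), 3 wells each. Laminins are basement membrane proteins to which cells attach. Total RNA of each well gave 1 library of 20606450 to 26836686 counts. All wells held the same cell line, so errors and p-values measure the spread between wells, which may be technical, and the oxygen level is not given in the sources used here.

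HIF is a transcription factor made of an oxygen-regulated alpha subunit, encoded by HIF1A or EPAS1, and a stable beta subunit encoded by ARNT. When oxygen is present the prolyl hydroxylases EGLN1 and EGLN3 mark the alpha subunit for destruction through the VHL protein, so much of this control acts on protein and is not visible in mRNA. A stable alpha subunit recruits the coactivators p300 (EP300) and CBP (CREBBP) and switches on targets such as VEGFA, ADM and EGLN3 itself. CITED2 is a small nuclear protein, itself inducible by HIF, that binds the same domain of p300 and CBP as the HIF alpha subunit and can displace it. It is also known for its part in heart and left-right development in mice, and as a coactivator of AP-2 transcription factors.

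CITED2 was 1.52-fold higher on the mixed coating, with every well above every well of the single coating. The HIF targets ADM and EGLN3 were lower, at 0.622 and 0.839 of their level on the single coating, while VEGFA, also a target, had overlapping groups. The mRNAs of the HIF subunits, of the coactivators and of EGLN1 overlapped too. In the fit across all genes (edgeR quasi-likelihood test, Benjamini-Hochberg adjusted p under 0.05), 3 of the 10 genes were past the threshold, CITED2 higher and EGLN3 and ADM lower. Of all 17608 genes tested 2.53% were past it, 1.4% higher and 1.14% lower. In CPM the coatings were apart for the same 3 genes, against 19.9% of all genes (groups that do not overlap). Nothing is read from these counts, since the genes were named with the comparison known.

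The count of members past the threshold differed between fits, and EGLN3 lost its call without some single wells. The count was 3 of 10 with RLE size factors (2.54% of all genes called), library size alone (2.39%), no filter (1.98%), DESeq2 (3.17%) and a replicate block (3.67%). With a filter of 1 CPM in 3 libraries EPAS1 was not tested and the count was 3 of 9 (3% of genes). With TPM, where the test (limma) and the filter on low values differed too and EPAS1 was again not tested, it was 1 of 9, CITED2, with limma on log2(TPM + 1) (0.229%) and 0 on log2(TPM + 0.1) (0.111%). It was 3 without LN-521 replicate 1 (6.54%) or replicate 2 (3.56%). Without LN-521 replicate 3 (1.13%), or without LN-521+LN-221 replicate 1 (1.61%), replicate 2 (1.1%) or replicate 3 (1.09%), it was 2, ADM and CITED2.

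The sequence before the start site is shown for the 3 genes because the core letters that HIF binds, ACGTG or GCGTG, can be looked for in it. The sequences come from RefSeq (GRCh38.p14), run 5′ to 3′ on the gene's strand, and carry matches to either motif on either strand in capitals. CITED2 (ENSG00000164442) lies on the minus strand of chromosome 6, from 139371807 to 139374620 in GENCODE 29. Its window is chr6:139374649-139374898, the 250 bases before the first start site listed, upstream of that gene model. For EGLN3 (ENSG00000129521), on the minus strand of chromosome 14, the window is chr14:33951082-33951324, 243 bases that stop 8 bases before the start site and lie outside annotated exons, within the span of longer EGLN3 transcripts. For ADM (ENSG00000148926), on the plus strand of chromosome 11, a stretch of 30 bases around the match is shown, chr11:10304960-10304989, 113 to 84 bases before the start site, which lies in an exon of a longer GENCODE transcript.
CITED2: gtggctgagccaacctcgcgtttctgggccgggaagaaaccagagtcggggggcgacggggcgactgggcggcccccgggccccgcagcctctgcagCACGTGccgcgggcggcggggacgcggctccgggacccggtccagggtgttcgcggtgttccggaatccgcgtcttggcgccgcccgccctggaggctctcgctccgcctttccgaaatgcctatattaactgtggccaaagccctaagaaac
EGLN3: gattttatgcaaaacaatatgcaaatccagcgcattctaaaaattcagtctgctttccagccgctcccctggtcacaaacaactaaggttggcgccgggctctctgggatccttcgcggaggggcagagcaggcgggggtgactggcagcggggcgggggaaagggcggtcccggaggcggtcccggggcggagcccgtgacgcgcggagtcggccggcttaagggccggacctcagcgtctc
ADM: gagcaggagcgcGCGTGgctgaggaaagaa

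The CITED2 window held ACGTG on each strand, and the 2 matches overlap in the palindrome CACGTG, whose first base is 153 bases before the start site. These letters are also an E-box, which other transcription factors bind. RefSeq lists 3 start sites for CITED2, and each of the other 2 windows had 1 match. ADM had 1 match to GCGTG, and neither motif was found in the EGLN3 window, which says only that these letters are not there.

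Of the 9 member genes with a RefSeq promoter (VEGFA had no entry), 6 held either motif and 2, CITED2 and EGLN1, held ACGTG. Over 27305 promoters of the same length 43.1% held either motif and 18.7% held ACGTG. Among other known HIF targets ACGTG was in 9 of 20 promoters of glucose metabolism genes (45.0%) and in 21 of 35 of the remaining targets (60.0%). Among genes of oxygen sensing and HIF turnover, which were not listed as targets, it was in 5 of 12 (41.7%). The 27305 promoters were not matched to any list in base composition. A match describes letters, and binding was not measured here.

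CITED2 was among the more abundant of the 10 mRNAs in every well. In TPM, which corrects for transcript length, its level was 80.2, 77.0 and 73.2 on the single coating, against 122.7, 115.2 and 119.3 on the mixed coating. The level of HIF1A, the broadly expressed alpha subunit, was 126.7, 99.4 and 118.5 TPM on the single coating, against 132.8, 120.5 and 121.7 TPM on the mixed coating. CITED2 was below HIF1A in each well, and nearer to it on the mixed coating. Its ratio to HIF1A was 0.632, 0.775 and 0.618 on the single coating, against 0.924, 0.956 and 0.980 on the mixed coating.

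By mean TPM over the 6 wells the order was HIF1A, CITED2, EGLN3, VEGFA, ARNT, EGLN1, ADM, EP300, CREBBP and EPAS1. Ranges over all wells overlapped for the neighbours HIF1A and CITED2, ARNT and EGLN1, EGLN1 and ADM, and ADM and EP300. Within wells, HIF1A was above CITED2 and EGLN1 above ADM in all 6, whereas ARNT and EGLN1, and ADM and EP300, were not in the same order in every well. EGLN3 (40.6 to 60.4 TPM) stood clear of VEGFA (22.2 to 27.4 TPM), and CREBBP (5.67 to 7.80 TPM) of EPAS1 (0.220 to 0.920 TPM). The TPM of HIF1A was 6.79 ± 0.585 times that of ARNT, its partner subunit, on the single coating and 6.75 ± 0.307 times on the mixed coating (SD, n = 3 each).

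**Figure D1:**
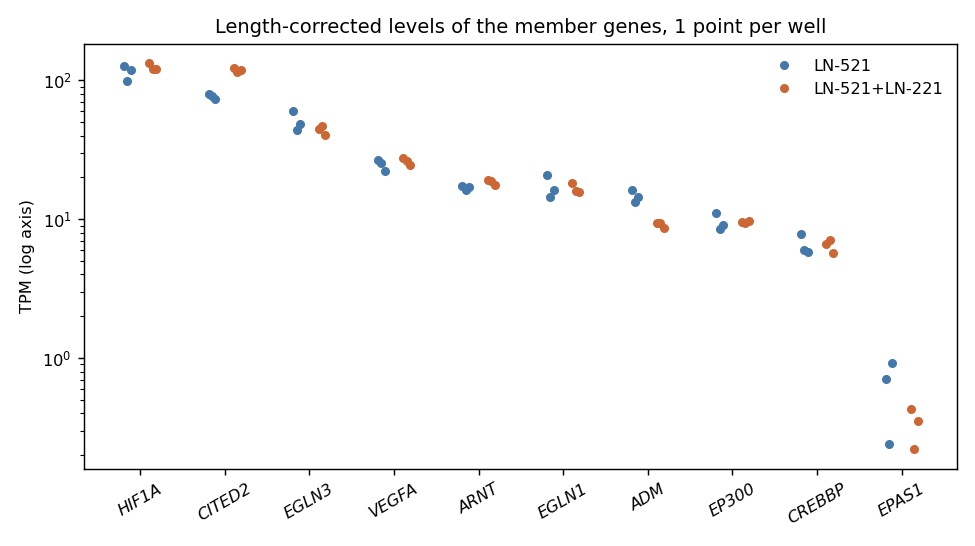
TPM (log axis) of the 10 genes in each of the 6 wells, ordered by mean, with LN-521 in blue and LN-521+LN-221 in orange. HIF1A and CITED2 are at the top, and EPAS1 is lowest at 0.220 to 0.920 TPM.

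Differences between coatings were measured on CPM, which are counts scaled to library size. CITED2, the inhibitor, had 127.8, 134.5 and 124.5 CPM on the single coating, against 192.8, 192.3 and 201.4 CPM on the mixed coating. The gap between the groups was far wider than their SDs of 5.13 and 5.15 CPM. Its log2 fold change, mixed over single coating, was 0.60 ± 0.05 (SE), with a 95% interval of 0.49 to 0.71. When each library was left out in turn it stayed between 0.58 and 0.63, and no exon of CITED2 overlaps another annotated gene.

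**Figure D2:**
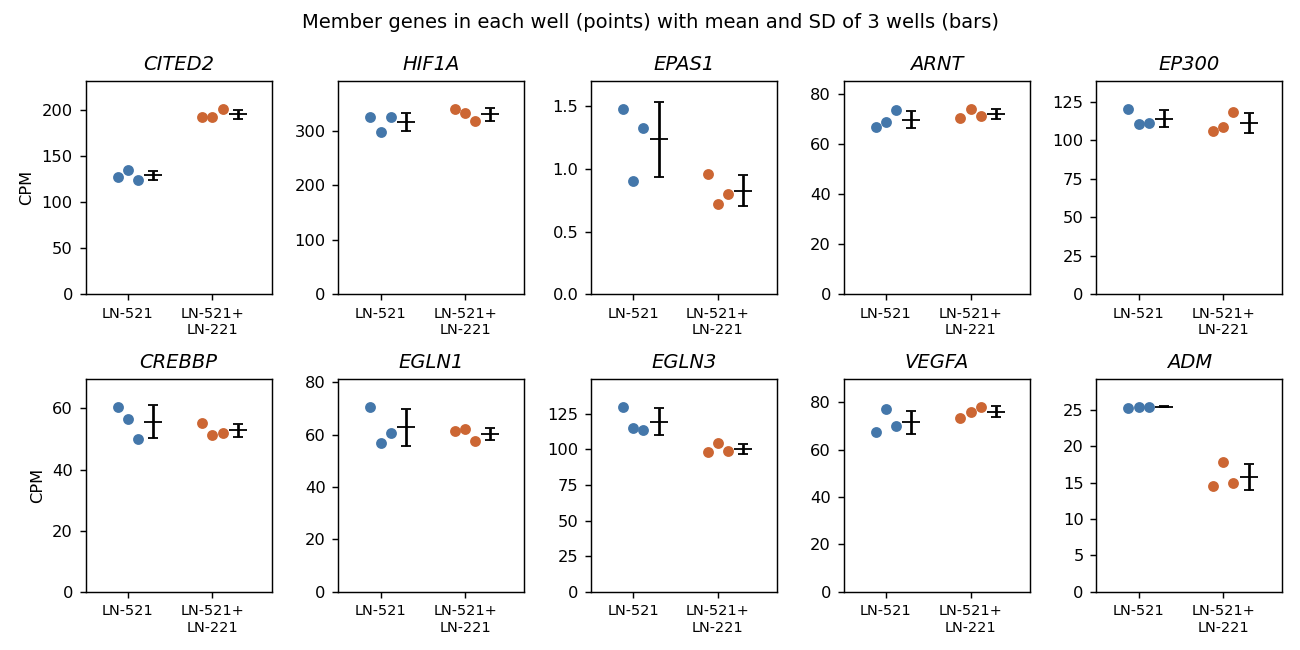
CPM of each gene in the 3 wells of each coating (points), with mean and SD beside them; each axis starts at 0. The groups are apart for CITED2 (higher on LN-521+LN-221) and for EGLN3 and ADM (lower), and overlap for the other 7 genes.

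Of the alpha subunits, HIF1A had 326.2, 298.0 and 326.6 CPM on the single coating, against 340.9, 332.8 and 318.4 CPM on the mixed coating, and the groups overlapped. Its log2 fold change was 0.06 ± 0.05 (SE), with a 95% interval of -0.05 to 0.18. HIF1A counts were not whole in any of the 6 libraries, which means that part of its reads were shared out among genes. Its exons overlap AL137129.1 on the same strand and HIF1A-AS1 on the other. Of genes given below, LDHA, BNIP3, POU5F1 and NANOG also had counts that were not whole in all 6 libraries, and TDGF1 in 5.

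EPAS1, the alpha subunit best known from endothelial cells, was barely detected, with 34, 24 and 33 counts on the single coating, against 20, 16 and 19 on the mixed coating. Scaled to library size the groups overlapped, at 0.902 to 1.48 and 0.718 to 0.963 CPM. The log2 fold change of -0.57 ± 0.30 (SE) had a 95% interval of -1.20 to 0.05, so that a difference was not resolved at this depth. ARNT, the beta subunit, had 69.7 ± 3.44 CPM on the single coating and 71.9 ± 1.90 CPM on the mixed coating (SD, n = 3 each), with a 95% interval of -0.08 to 0.17 on the log2 scale.

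The coactivators that CITED2 and HIF share had overlapping groups. EP300 had 114.0 ± 5.50 CPM on the single coating and 111.0 ± 6.44 CPM on the mixed coating (SD, n = 3 each). CREBBP had 55.6 ± 5.44 and 52.8 ± 2.12 CPM (SD, n = 3 each). Their 95% intervals were -0.17 to 0.09 and -0.23 to 0.08 on the log2 scale. The sign of EP300 changed when LN-521 replicate 1 was left out. In TPM, EP300 was 1.48 ± 0.0936 times CREBBP on the single coating and 1.49 ± 0.207 times on the mixed coating (SD, n = 3 each).

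Of the oxygen sensors, EGLN1, the main prolyl hydroxylase of HIF1A, had 70.7, 56.7 and 60.7 CPM on the single coating, against 61.2, 61.9 and 57.6 CPM on the mixed coating. Its groups overlapped, and its 95% interval was -0.22 to 0.10 on the log2 scale. Its sign changed when LN-521 replicate 1, its highest well, was left out. EGLN3, a sensor that HIF itself induces in many cells, had 130.1, 114.9 and 113.4 CPM on the single coating, against 98.0, 104.2 and 98.5 CPM on the mixed coating. Its groups were apart in CPM, and LN-521 replicate 1 was the highest well.

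The log2 fold change of EGLN3 was -0.25 ± 0.06 (SE), with a 95% interval of -0.38 to -0.12, and from -0.29 to -0.19 when a library was left out. In TPM its groups overlapped, since LN-521 replicate 2 had 44.0 TPM while replicates 1 and 2 of the mixed coating had 44.5 and 47.0 TPM. The ratio of EGLN3 to EGLN1 in TPM was 2.98 ± 0.0787 on the single coating and 2.67 ± 0.261 on the mixed coating (SD, n = 3 each), and overlapped as well.

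Of the targets, ADM encodes adrenomedullin, a peptide that widens blood vessels and whose mRNA is used as a hypoxia marker. It had 25.3, 25.5 and 25.4 CPM on the single coating, against 14.6, 17.8 and 14.9 CPM on the mixed coating. The wells of the single coating were almost identical, and those of the mixed coating were all below them. The log2 fold change was -0.69 ± 0.09 (SE), with a 95% interval of -0.88 to -0.50, and from -0.78 to -0.63 when a library was left out. In TPM the groups were also apart, at 13.4 to 16.2 and 8.69 to 9.36.

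VEGFA encodes a vascular growth factor and is among the best known HIF targets. It had 67.5, 77.0 and 69.8 CPM on the single coating, against 73.5, 76.0 and 78.2 CPM on the mixed coating. The groups overlapped, and the 95% interval was -0.05 to 0.22 on the log2 scale. The ratio of ADM to VEGFA in TPM was 0.592 ± 0.0616 on the single coating and 0.349 ± 0.00656 on the mixed coating (SD, n = 3 each). VEGFA and EP300 each share exon sequence with an antisense transcript, and reads of such partners cannot be told apart unless strand was used, which is not given in the sources used here.

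**Figure D3:**
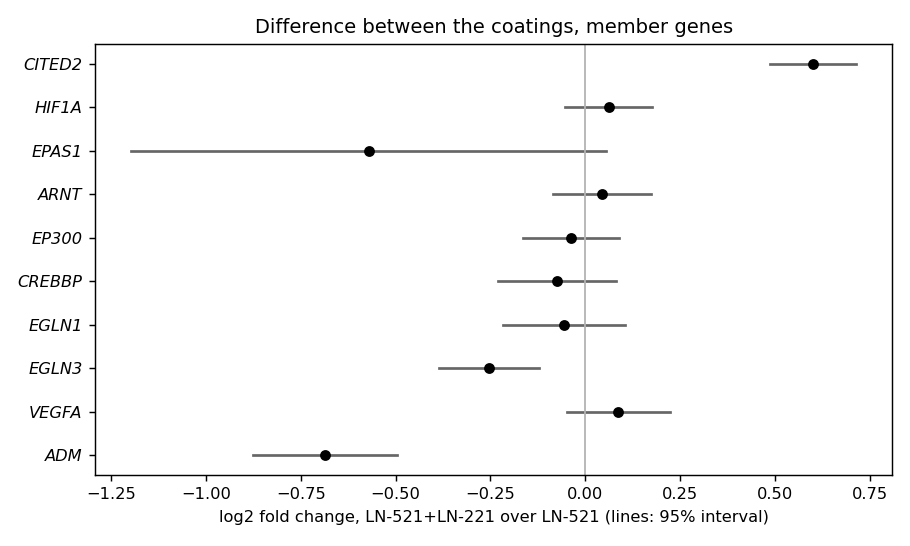
Log2 fold change of the 10 genes, LN-521+LN-221 over LN-521, as points with 95% intervals as lines. The intervals run from 0.49 to 0.71 for CITED2, -0.38 to -0.12 for EGLN3 and -0.88 to -0.50 for ADM, and that of EPAS1, the gene with the fewest counts of the 10, is the widest.

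To ask whether CITED2 moves with HIF targets, 65 other known targets were compared, 21 of glucose metabolism and 44 others. These lists, and those of oxygen sensing and CITED2 partners below, were chosen with earlier results of these data known. Of the 65 targets 64 could be tested, and 2 passed the threshold (3.12%, against 2.53% of all genes), 1 higher and 1 lower. The count moved with single wells. It was 9 without LN-521 replicate 1, 7 lower and 2 higher (14.1%, against 6.54% of all genes), and 5 without LN-521 replicate 2, all lower (7.81%, against 3.56%). Without LN-521 replicate 3, or without any 1 well of the mixed coating, it was 1 (1.56%, against 1.09% to 1.61%). The median log2 fold change was -0.08 over the 64 genes and -0.0011 over all genes.

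EDN1, which encodes the vessel-narrowing peptide endothelin-1, was the target that rose. It had 7.80, 5.83 and 3.77 CPM on the single coating, against 13.3, 13.8 and 14.3 CPM on the mixed coating, and the groups were apart. The edgeR log2 fold change was 1.26 ± 0.19 (SE), with an adjusted p of 0.00391. Without LN-521 replicate 2 it was 1.27 (edgeR adjusted p = 0.0721), within a range of 3.89e-07 to 0.0721 when each library was left out. EDN1 did not pass in limma on log2(TPM + 1) or log2(TPM + 0.1) (adjusted p = 0.115 and 0.233).

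ALDOC, an aldolase of glycolysis, was the target that fell. It had 114.1, 126.5 and 130.2 CPM on the single coating, against 95.2, 103.5 and 102.9 CPM on the mixed coating, and the groups were apart. The edgeR log2 fold change was -0.30 ± 0.06 (SE), with an adjusted p of 0.0124. The call was lost without LN-521 replicate 3 (edgeR adjusted p = 0.117) or without replicate 1, 2 or 3 of the mixed coating (0.12, 0.0772 and 0.0584). It was also lost in limma on log2(TPM + 1) and log2(TPM + 0.1) (adjusted p = 0.413 and 0.448). ALDOC shares exon sequence with an antisense transcript.

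**Figure D4:**
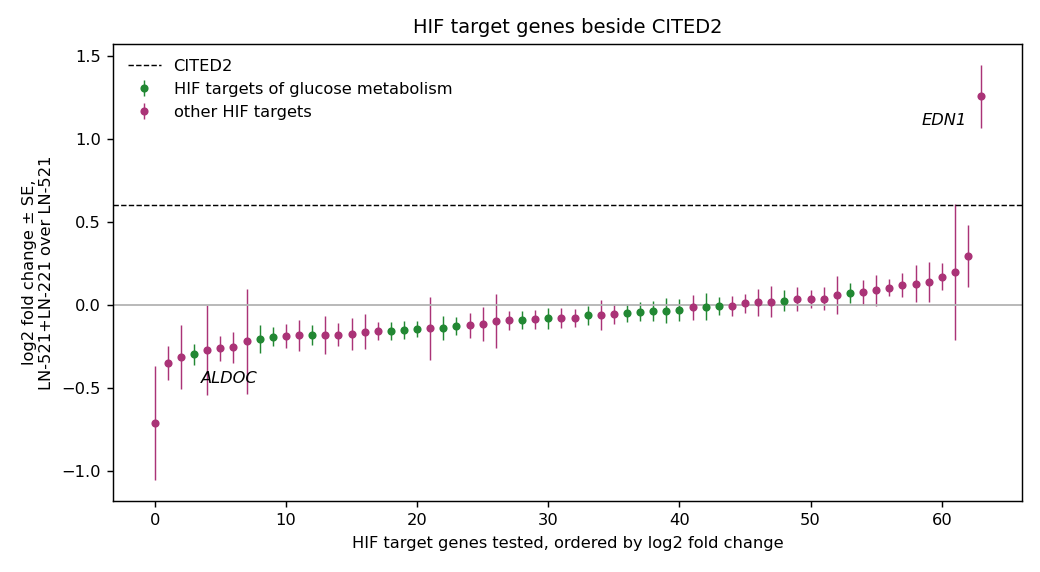
Log2 fold change with SE of the 64 HIF targets tested, ordered by value, with the glucose metabolism genes in green, the other targets in purple and CITED2 as a dashed line. Of the 64, 45 lie below 0, and EDN1 and ALDOC are the 2 genes past the threshold.

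Over all 64 targets, ALDOC and EDN1 included, more values were lower than higher in CPM. A negative log2 fold change was seen in 45 of 64 (70.3%, against 50.3% of all genes), among them 19 of the 21 of glucose metabolism. The wells of the single coating were not alike in this. Relative to the mean of the single coating (log2 CPM), the median of the glucose genes was -0.09, 0.08 and 0.004 in its wells, against -0.13, -0.06 and -0.04 on the mixed coating, so LN-521 replicate 1 lay below 2 wells of the mixed coating. The median of the other targets was 0.04, 0.01 and -0.03, against -0.07, -0.04 and -0.05. An unadjusted p under 0.05 was reached by 16 (25.0%, against 14.5% of all genes), of which 14 were lower (21.9%, against 7.49%) and 2 higher (against 7.05%). The groups did not overlap for 12 lower genes (18.8%, against 9.68% of all genes) and 2 higher genes (3.12%, against 10.2%). In TPM (limma, log2(TPM + 1)) 32 of 59 targets were negative (54.2%, against 39.5% of all genes), 0 passed, and the median was -0.015 beside 0.035 for all genes.

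The glucose genes include the steps best known as HIF targets. SLC2A1, a glucose transporter, had 804.7 ± 52.8 CPM on the single coating and 704.8 ± 24.2 CPM on the mixed coating (SD, n = 3 each; edgeR adjusted p = 0.0842). PGK1, a glycolytic enzyme, had 1668 ± 33.3 and 1510 ± 42.1 CPM (SD, n = 3 each; edgeR adjusted p = 0.144). PDK1, which limits the entry of pyruvate into mitochondria, had 122.5 ± 18.1 and 106.1 ± 3.95 CPM (SD, n = 3 each; edgeR adjusted p = 0.273). With all 6 libraries SLC2A1 passed in DESeq2 (adjusted p = 0.0392), with a replicate block (edgeR adjusted p = 0.0361) and with no filter (edgeR adjusted p = 0.0207), and PDK1 passed with no filter (edgeR adjusted p = 0.0363). Of the fits that left out 1 library, SLC2A1 passed without LN-521 replicate 1 (-0.24, edgeR adjusted p = 0.00268) and PDK1 without LN-521 replicate 2 (-0.30, edgeR adjusted p = 0.00845). Over the same fits the smallest difference of SLC2A1 was -0.14, without LN-521 replicate 2 (edgeR adjusted p = 0.168). That of PDK1 was -0.09, without LN-521 replicate 1 (edgeR adjusted p = 0.404). Neither gene passed in limma on log2(TPM + 1) (adjusted p = 0.759 and 0.831). LDHA, lactate dehydrogenase A, was at -0.04 ± 0.06 in log2 fold change (SE; edgeR adjusted p = 0.816).

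Other common hypoxia markers did not pass. BNIP3, which promotes the removal of mitochondria, was at 0.03 ± 0.05 in log2 fold change (SE; edgeR adjusted p = 0.832). KDM3A, a histone demethylase, was at -0.0074 ± 0.060 (SE; edgeR adjusted p = 0.972), and DDIT4, an inhibitor of mTOR signalling, at 0.09 ± 0.09 (SE; edgeR adjusted p = 0.742). The sign of KDM3A changed in TPM, and those of both genes when a library was left out. NDRG1 had 11.7 ± 0.353 CPM on the single coating and 9.17 ± 0.645 CPM on the mixed coating (SD, n = 3 each; edgeR adjusted p = 0.0895). CA9, a carbonic anhydrase strongly induced by HIF in many cells, had 8 to 15 counts per library (0.301 to 0.602 CPM; edgeR adjusted p = 0.876).

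In the remaining oxygen-sensing machinery 0 of 15 genes passed in edgeR, against 2.53% of all genes, and 1 had an unadjusted p under 0.05 (6.67%, against 14.5% of all genes). That number was 4 without LN-521 replicate 1, 2 without LN-521 replicate 2, and 0 without replicate 2 or 3 of the mixed coating. The share of all genes at that p was not counted in these fits, so nothing is read from the number. Past the adjusted threshold it was 0 of 15 whichever library was left out, against 1.09% to 6.54% of all genes. DESeq2 and limma on TPM gave 0 of 15 as well. The prolyl hydroxylase EGLN2 was at -0.09 ± 0.08 in log2 fold change (SE; edgeR adjusted p = 0.686). HIF1AN, the asparagine hydroxylase that blocks the binding of p300 to the alpha subunit, was at 0.09 ± 0.06 (SE; edgeR adjusted p = 0.540). VHL, which recognises the hydroxylated alpha subunit, was at 0.04 ± 0.07 (SE; edgeR adjusted p = 0.832), and ARNT2, a relative of ARNT, at 0.11 ± 0.09 (SE; edgeR adjusted p = 0.656). The signs of EGLN2 and VHL changed when a library was left out. Exons of SLC2A1, PGK1, PDK1, CA9, DDIT4, EGLN2, HIF1AN and ARNT2 also overlap those of other annotated genes, on the same or the other strand, so their counts carry the same uncertainty.

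Of 13 relatives and partners of CITED2, 7 were tested and 1 rose (14.3%, against 1.4% of all genes). This was TFAP2C, an AP-2 transcription factor of the family that CITED2 coactivates. It had 31.2, 31.1 and 30.5 CPM on the single coating, against 36.6, 42.1 and 41.0 CPM on the mixed coating, and the groups were apart. The edgeR log2 fold change was 0.37 ± 0.07 (SE), with an adjusted p of 0.00940. The call was lost without LN-521 replicate 3 (edgeR adjusted p = 0.0738) or without replicate 2 or 3 of the mixed coating (0.107 and 0.0766), and in limma on log2(TPM + 1) and log2(TPM + 0.1) (adjusted p = 0.354 in each). CITED4 had 2.26 to 2.71 TPM and differed by -0.04 ± 0.17 in log2 fold change (SE; edgeR adjusted p = 0.949), with a sign that was not stable across settings. CITED1 had 4 to 13 counts per library and was not tested.

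The genes whose log2 CPM was most like that of CITED2 over the 6 libraries were LRATD2, STOM, CTTNBP2, CDH9 and MCC, with Pearson r from 0.996 to 0.999 among 14645 genes compared. The libraries fall into 2 coatings, so r largely follows the difference between them. A positive log2 fold change was thus fixed by the choice of these genes, and its size is given with no test: 0.59 for LRATD2, 0.82 for STOM, 0.27 for CTTNBP2, 1.13 for CDH9 and 0.58 for MCC. Once each coating's mean was removed, r of these genes with CITED2 was still 0.85 (MCC) to 0.96 (LRATD2), which their choice by highest r also favours. Of the other 9 members, ADM had the most negative r with CITED2 (-0.97) and VEGFA the most positive (0.66). With each coating's mean removed, the r of ADM was -0.25 and that of VEGFA 0.82, and HIF1A had the most negative value (-0.94, against 0.40 before). Among the HIF targets compared below 0 and above it, r with the means removed ran from -0.89 for P4HA1 to 0.82 for PFKFB3. All these r are a description over the same 6 libraries, which share their scaling.

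Markers of undifferentiated cells were checked for the identity of the cultures. All 6 were expressed, with a summed level of 7005 to 7130 CPM on the single coating and 7028 to 7185 CPM on the mixed coating. Of these 4 passed the threshold (66.7%, against 2.53% of all genes), LIN28A higher (0.23, edgeR adjusted p = 0.00737) and POU5F1 (-0.36, 0.00366), NANOG (-0.73, 1.65e-04) and TDGF1 (-0.65, 8.23e-06) lower, and their part in the differences above was not tested. Of 21 markers of other cell types, 18 had at most 18 counts in any library, and LUM was at 0 in all. The other 3 were expressed and did not pass: COL1A2 of fibroblasts had 4326 to 5854 counts, KRT7 of trophoblast 385 to 623 and TEK of endothelium 426 to 583. In bulk RNA, fewer cells with a transcript cannot be told apart from less of it per cell.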

How the data were processed

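The authors deposited estimated counts per gene (not whole in 6.08% to 6.67% of values per library) and TPM, which are corrected for transcript length. The submitters' processing notes name cutadapt, STAR 2.5.2b, RSEM 1.2.31 and hg38; the annotation is not given in the sources used here. Estimated counts were rounded. Genes were kept with filterByExpr (minimum count 10), scaled by TMM and compared with edgeR 4.0.16 (R 4.3.3, quasi-likelihood, robust, no replicate block), adjusting over 17608 genes. An SE is the absolute log2 fold change divided by the square root of F. CPM are rounded counts over TMM-scaled library sizes. Alternatives used other scalings and filters, DESeq2 1.42.0, limma 3.58.1 on log2 TPM with pseudocounts of 1 and 0.1 (genes at 1 TPM in 3 libraries), a replicate block and leaving out each library.

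Symbols came from a table that gave a symbol for 68.0% of the IDs, and gene positions from GENCODE 29 (GRCh38). The members and lists were chosen with earlier results of these data known. The text names the 10 members, up to 4 higher and 4 lower genes per list past the threshold, 16 fixed genes, and the 5 genes most like CITED2 at a mean of 1 CPM or more; the 8 marker genes were named after their values were seen. In simulated data the edgeR fit recovered 97.0% of changes of 1 and 78.0% of changes of 0.5 on the log2 scale. Changes were placed only in genes above a minimum mean count, which leaves out genes as low as EPAS1 and CA9. Of the calls in that fit 9.79% were false, more than the threshold of 0.05 allows. The sample sheet gives 1 sequencing batch. No libraries agreed within sampling noise (chi-square per degree of freedom of at least 2.89).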

Additional observations from a re-analysis of the deposited data

How the results depend on the processing

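CITED2 stayed within 1 SD (log2 scale) of its reported fold change in all 14 alternatives, from 0.58 to 0.63 when a library was left out. The 446 genes called became 718 without a filter, 33 with limma on log2(TPM + 1), 16 on log2(TPM + 0.1), and 194 to 1179 when a library was left out. The 2 HIF targets called (of 64) became 4 of 65 without a filter (6.15%, against 1.98% of all genes), 3 of 64 with DESeq2 (4.69%, against 3.17%) and with the replicate block (against 3.67%; SLC2A1 added in each), 0 of 59 in both TPM fits (against 0.229% and 0.111%), and 1 to 9 without a library. The highest count, without LN-521 replicate 1, was 7 lower and 2 higher (14.1%, against 6.54% of all genes), and 5 lower were called without LN-521 replicate 2 (7.81%, against 3.56%). The median of the HIF targets was -0.015 and -0.016 in the TPM fits and -0.085 to -0.049 without a library. With the replicate block 646 genes were called, the same 3 members among them. Over all genes tested, deviations of same-numbered wells correlated at 0.0435, -0.0292 and 0.0283. Whether the numbers pair the wells is not given in the sources used here, and these correlations cannot settle it. KDM3A reversed to 0.066 and 0.068 and CITED4 to 0.0034 and 0.0042 on log2(TPM + 1) and log2(TPM + 0.1). Without a library, the members EGLN1 and EP300 ranged from -0.12 to 0.037 and from -0.088 to 0.0022, KDM3A from -0.057 to 0.031, CITED4 from -0.14 to 0.076, DDIT4 from -0.0027 to 0.21, EGLN2 from -0.17 to 0.030 and VHL from -0.0015 to 0.12. For all of these the cause was not tested. Depth limits EPAS1 (16 to 34 counts) and CA9 (8 to 15 counts), whose intervals are wide.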

Other observations

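Within a coating, HIF targets differed in which well was highest. Of the 43 targets outside glucose metabolism, 21 were highest in LN-521 replicate 1 within that coating (48.8%, against 37.2% of all genes tested). Of the 21 targets of glucose metabolism, 13 were highest in LN-521 replicate 2 (61.9%, against 36.4%). Of the glucose genes, ALDOA measured 1163, 1329 and 1240 CPM in LN-521 replicates 1, 2 and 3, and of the other targets PLOD2 measured 106.7, 75.5 and 90.8 CPM. Single genes went the other way: PDK1, of glucose metabolism, was highest in replicate 1 (141.6, 105.7 and 120.1 CPM), and DDIT4, of the other targets, in replicate 2 (425.1, 568.1 and 472.9 CPM). ALDOA and PLOD2 were chosen after their values were seen. On LN-521+LN-221, replicate 2 was highest for 25 of the 43 other targets (58.1%, against 31.04%), while of the 21 glucose genes 10 were highest in replicate 3 (47.6%, against 35.1%) and 9 in replicate 2 (42.9%).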
